A study of Mus musculus with 4 samples.

Results

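Homeobox genes encode transcription factors that bind DNA through a homeodomain, and many of them divide the developing retina into cell types. Described here are 40 homeobox genes outside the core set of photoreceptor factors, chosen by name in 8 subfamilies. These are Pax/paired, LIM, sine oculis or Six2 to Six6, Irx, Pou, Zeb/Zfhx, Cut/Satb and NK-like. The last is a label used here for the Bar, Dlx, Gbx, Vax and Hmx genes. The platform annotation gave 39 of them a probe set (a feature) with that gene as its 1 symbol, out of 18920 genes so represented. Pou2f1, a POU factor, was not analysed here. Only Pou3f2 had 2 features, and the one with the higher mean over the arrays was used.

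The cells came from dissected retinas of BAC-Crx-EGFP mice on a 129Sv/Ev background at embryonic day E17.5. They were sorted into EGFP-positive cells and EGFP-negative cells with 2 replicates each and 1 array per replicate. Both fractions carry the transgene, in which the regulatory sequences of the photoreceptor gene Crx drive green fluorescent protein, so the fractions differ by fluorescence and not by genotype. The labels give neither the purity of the sort nor the animals, litters or sorting runs behind each replicate. The p-values thus reflect the spread among these 4 samples, part or all of which may be technical. The comparison addresses what distinguishes Crx-expressing precursor cells from the remaining cells of the same retinas.

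In the retina, Pax6, Rax, Lhx2, Six3 and Six6 act early, in the eye field and in progenitors. Others are best known from classes of later neurons, such as Isl2 from ganglion cells, Barhl2 from amacrine and ganglion cells, Irx5 and Irx6 from bipolar cells, and Vsx1 from cone bipolar cells. Vax1 and Vax2 pattern the optic stalk and the ventral retina. Crx and Otx2, the homeobox factors of the photoreceptor core, were left out of the set.

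The array medians lay between 218.4 and 222.9 intensity units. Photoreceptor markers separated the fractions. Their list, chosen with earlier results of these data known, includes Crx (3.66 ± 0.19). The regulatory sequences of Crx drive the EGFP used for sorting, so its difference is not independent of the sort. Of 12 photoreceptor precursor genes 10 were called higher in the EGFP-positive fraction (limma, adjusted p under 0.05), and their summed intensity was 26829.9 and 33888.2 on the positive arrays against 4359.0 and 4439.6 on the negative ones. The 13 progenitor genes summed to 31623.6 and 21932.7 on the positive and 48023.7 and 46171.1 on the negative arrays. All 13 had a negative difference, with Sox2 called and the largest difference in Hes1 (-1.5 ± 0.40). The largest photoreceptor difference was that of Rbp3 (4.37 ± 0.19). Of the other marker lists, horizontal cell genes had no call among 6 and the largest difference in Onecut2 (1.42 ± 0.53). The median difference of these 6 was 0.42, and 5 were above 0. At an unadjusted p under 0.05 stood 2 of them (33.3%, against 19.2% of all features). Bipolar cell genes had Neurod4 alone called among 8 (2.60 ± 0.10), while their median difference was -0.04 and 5 of the 8 were below 0. Limma called none of 9 ciliary margin and pigment cell genes, 5 optic stalk and astrocyte genes, 8 vascular and microglial genes or 6 lens genes, with 1, 0, 0 and 0 at an unadjusted p under 0.05.

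None of the 39 homeobox genes was called by limma in either direction after Benjamini-Hochberg adjustment over all 22431 features, of which 0.963% were called (0.82% higher and 0.143% lower). At an unadjusted p under 0.05, 12 of the 39 (30.8%) differed, against 19.2% of all features. The 8 on the higher side, 20.5% of the set against 9.34% of all features, were Lhx4, Isl2, Lhx3, Zfhx4, Zfhx3, Zeb1, Satb1 and Barhl2. The 4 on the lower side, 10.3% against 9.83%, were Lhx2, Six5, Pou3f2 and Hmx1. None of the 39 lay under the 25th percentile of mean intensity. With the features under it left out, 10 of the 39 (25.6%) had an unadjusted p under 0.05. This was close to the 23.3% of the features kept. The median log2 difference (EGFP-positive minus EGFP-negative) over the 39 genes was 0.01, against -0.01 over all features, and the median size of the difference was 0.20 against 0.13. A difference of at least 2-fold was seen for 3 genes (7.69%, against 2.21% of features), namely Lhx4, Isl2 and Zfhx4. In sorted bulk RNA, fewer cells expressing a gene and less of its RNA per cell cannot be told apart.

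The absence of calls depended on the arrays used. In a fit that leaves out 1 array, the lone array of a fraction is assumed to vary like the other fraction. The calls below thus leave out that fraction's own spread. Without EGFP-positive replicate 1, limma called Lhx4, Isl2, Zfhx4 and Satb1 higher and Lhx2 and Six5 lower, in a fit that called 6.37% of all features. Without EGFP-positive replicate 2 it called Lhx4 alone of the set and 0.709% of all features. Without either negative array it called none of the 39. At an unadjusted p under 0.05 stood 5 genes (12.8%, against 10.5% of all features) when negative replicate 1 was left out and 10 (25.6%, against 14% of features) when negative replicate 2 was.

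**Figure D1:**
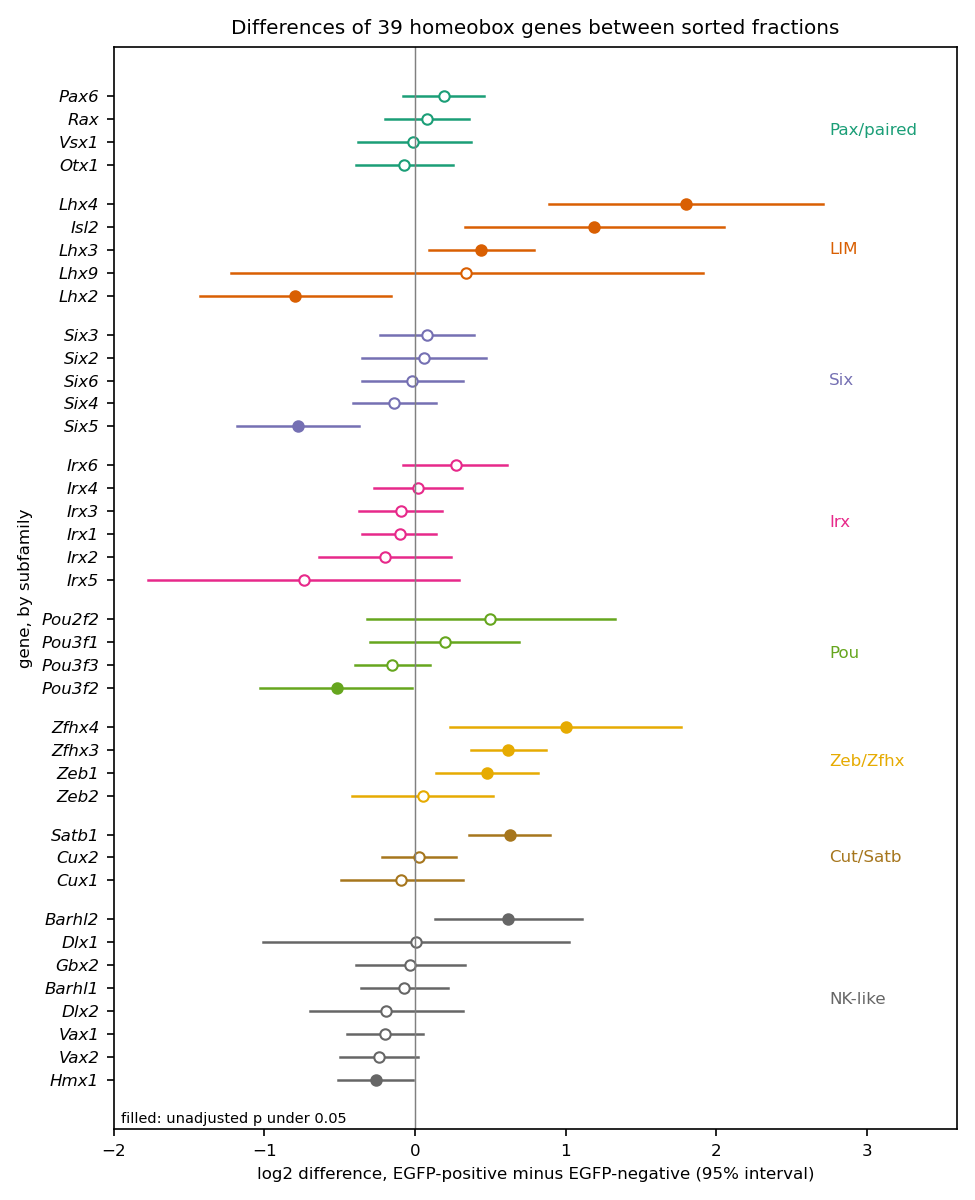
Log2 difference between the fractions (EGFP-positive minus EGFP-negative) for the 39 measured homeobox genes, grouped by subfamily, with limma's 95% interval as the line. Filled points have an unadjusted p under 0.05, and Lhx4, at 1.80, lies farthest from 0.

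The LIM factors, which pair a homeodomain with zinc-binding LIM domains, had the widest range of differences among the subfamilies, from -0.80 for Lhx2 to 1.80 for Lhx4. Lhx4, a factor of pituitary and motor neuron development that is also known from cones and bipolar cells, read 683.0 and 1468.5 intensity units on positive replicates 1 and 2 and 269.7 and 306.8 on negative replicates 1 and 2. Both positive arrays lay above both negative ones, and the positive arrays differed from each other more than the negative ones did. As log2 intensity this was 9.97 ± 0.78 against 8.17 ± 0.13 (SD, n = 2 per fraction), a 3.48-fold higher mean in the positive fraction (log2 difference 1.80 ± 0.36, SE, limma adjusted p = 0.0893). Leaving out positive replicate 1 gave a log2 difference of 2.35, and leaving out positive replicate 2 gave 1.25. With 1 positive array left, the spread among positive arrays does not enter the fit.

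Lhx3, the close paralog of Lhx4, read 209.4 and 251.4 on the positive and 181.0 and 158.7 on the negative arrays. The fractions did not overlap, but the difference of 0.44 ± 0.14 was smaller (limma adjusted p = 0.186). Isl2, a LIM factor of ganglion cell and motor neuron subtypes, read 381.9 and 680.3 on the positive and 177.7 and 279.8 on the negative arrays. In each fraction replicate 2 was the higher array, and the difference between the fractions was 1.19 ± 0.34 (limma adjusted p = 0.156, and 0.0322 without positive replicate 1, where the difference was 1.61).

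Beside Isl2 stand 14 measured ganglion cell genes. None was called by limma, 0 had an unadjusted p under 0.05, their median difference was 0.10, and Slc17a6 had the largest (0.67 ± 0.62). Their summed intensity was 5920.0 and 10255.0 on the positive and 4678.9 and 10469.0 on the negative arrays, so that replicate 2 was higher in both fractions. Their part in the Isl2 values was not tested.

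Lhx2, required for the optic vesicle and for progenitors, lay on the other side. It read 1616.4 and 986.4 on the positive arrays and 2383.1 and 2022.4 on the negative ones, with no overlap and a difference of -0.80 ± 0.25 (limma adjusted p = 0.182). Without positive replicate 1 the difference was -1.15, and without positive replicate 2 it was -0.44. Most progenitor markers were likewise lower on positive replicate 2 than on replicate 1, with a median difference between these arrays of -0.64. Sfrp2 (0.67) and Nes (0.28) were higher there, and Sox2 hardly moved (-0.01). The part of the progenitor markers in the Lhx2 values was not tested. Lhx9, known from amacrine cells and the gonad, read 614.8 and 192.6 on the positive and 391.1 and 188.4 on the negative arrays. These ranges overlapped, and the difference of 0.34 ± 0.62 (limma adjusted p = 0.859) had a 95% interval from -1.22 to 1.91 and turned to -0.50 without positive replicate 1.

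LIM factors act with Ldb adaptor proteins, their SSBP partners and the LIM-only Lmo proteins. Of 9 such cofactor genes none was called by limma, and 4 (44.4%) had an unadjusted p under 0.05, against 19.2% of all features. Over all 56 measured companion genes, Hox cluster genes included, the share was 8.93%. The 4 cofactor genes, named after their values were seen, were Lmo2 (0.55 ± 0.10) and Ssbp3 (0.59 ± 0.13) on the higher side. On the lower side were Ldb2 (-0.46 ± 0.11) and Ssbp4 (-0.62 ± 0.16). The largest difference was that of Lmo3, 1.17 ± 0.52 (limma adjusted p = 0.314).

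The Zeb/Zfhx genes, which encode large proteins with zinc fingers and homeodomains, were all above 0 in difference, and their median was 0.55. That of Zeb2 turned negative without positive replicate 2 or negative replicate 1. The fractions of the other 3 did not overlap, so leaving out 1 array could not turn their sign. Zfhx3, known from the circadian clock and from neuronal differentiation, read 896.7 and 854.2 on the positive and 566.3 and 573.8 on the negative arrays. Replicates were close in both fractions, and the difference of 0.62 ± 0.10 had the lowest p of the 39 genes (limma adjusted p = 0.0685). Its adjusted p ranged from 0.0578 to 0.0991 over the 7 alternatives that kept all arrays and did not block on replicate. Zfhx4, its paralog, read 590.3 and 1002.8 against 318.0 and 463.9, a difference of 1.0 ± 0.30 (limma adjusted p = 0.173). Replicate 2 of Zfhx4 was the higher array in both fractions, and the difference was 1.38 without positive replicate 1 (limma adjusted p = 0.0339) and 0.62 without positive replicate 2.

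Zeb1, a repressor best known for its role in epithelial-mesenchymal transition, read 1003.0 and 1233.3 on the positive and 785.4 and 810.1 on the negative arrays, again without overlap (0.48 ± 0.13, limma adjusted p = 0.15). Zeb2, which acts in amacrine and horizontal cell development, read 926.7 and 1231.3 against 927.1 and 1150.1. Its fractions overlapped almost completely (0.05 ± 0.19, limma adjusted p = 0.947), with a 95% interval from -0.42 to 0.52.

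Among the Cut/Satb genes, Satb1, a chromatin organiser first known from T cells, stood apart from the Cut genes Cux1 and Cux2 in its values. It read 1910.2 and 2108.1 on the positive and 1282.1 and 1306.6 on the negative arrays. The fractions were separate and the replicates close, with a difference of 0.63 ± 0.11 (limma adjusted p = 0.0753, and 0.0466 without positive replicate 1). Cux1, a regulator of dendrite growth, read 1423.8 and 1130.6 against 1468.4 and 1237.1 (-0.09 ± 0.16), and its sign turned without positive replicate 2 or negative replicate 1. For Cux2 the values were 273.0 and 272.0 against 262.2 and 273.4, and the 95% interval of the difference ran from -0.22 to 0.27.

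**Figure D2:**
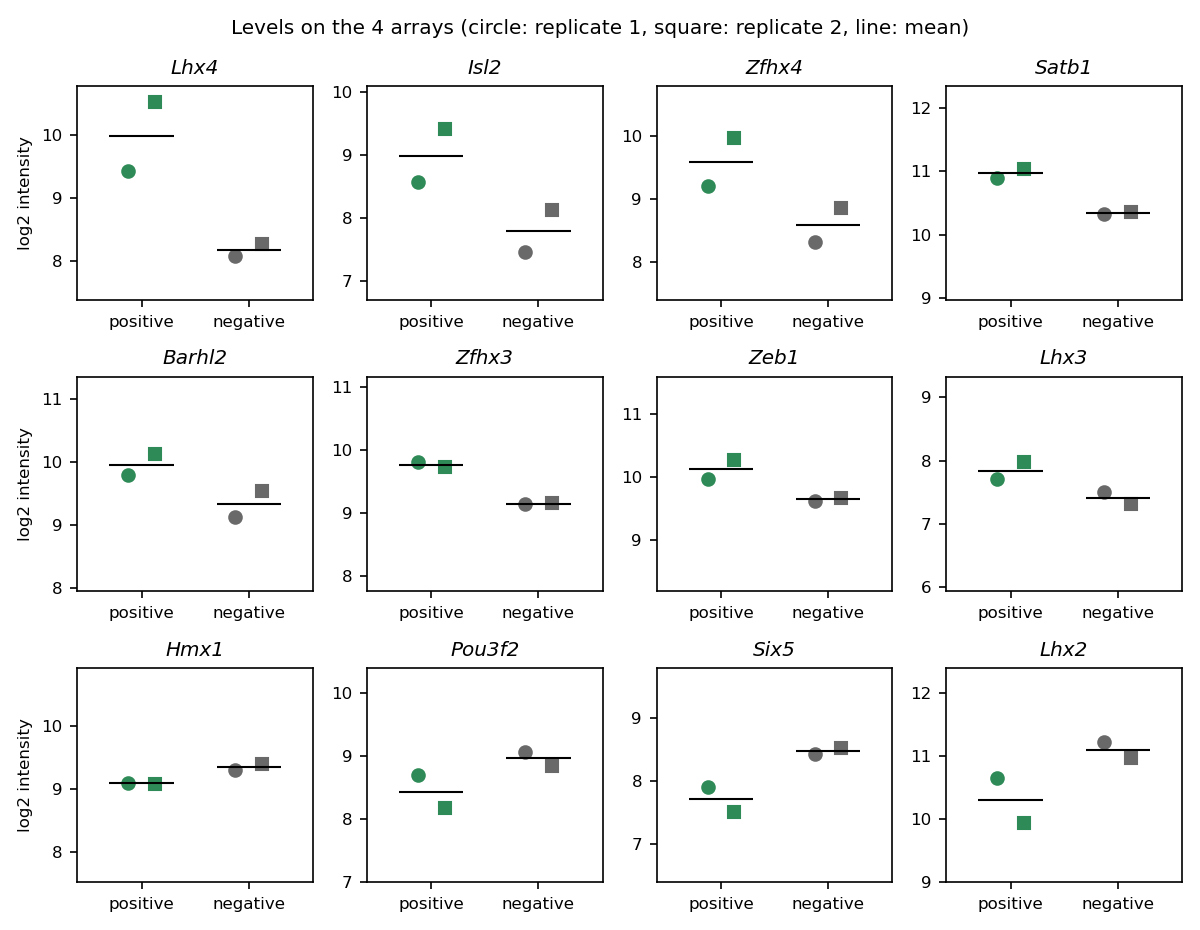
Log2 intensity on each of the 4 arrays for the 12 homeobox genes with an unadjusted p under 0.05, each panel spanning the same range of log2 units around its own mean. In all 12 panels the positive and the negative arrays are separate. The positive replicates of Lhx4, Isl2, Zfhx4 and Lhx2 lie farther apart than those of Satb1 and Zfhx3.

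The NK-like group held 1 gene on each side at an unadjusted p under 0.05. Barhl2, which favours amacrine and ganglion cell fates, read 882.9 and 1119.0 on the positive and 558.5 and 750.8 on the negative arrays. The fractions did not overlap, and the difference was 0.62 ± 0.19 (limma adjusted p = 0.182). Beside it, the 10 measured amacrine cell genes all had a positive difference, with Tfap2a (1.12 ± 0.14, the largest) and Tfap2b called higher. Their summed intensity was 6209.7 and 6492.7 on the positive and 4289.5 and 4083.4 on the negative arrays. Their part in the Barhl2 values was not tested. Barhl1, the paralog known from the cerebellum and the inner ear, read 160.6 and 167.2 against 183.3 and 161.3 (-0.07 ± 0.11), with a sign that turned without negative replicate 1.

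Hmx1, a factor of eye and ear development, had almost the same value on both positive arrays, 544.6 and 542.8, and read 632.4 and 671.9 on the negative ones. The difference was small but free of overlap (-0.26 ± 0.10, limma adjusted p = 0.248). The dorsoventral factors Vax1 and Vax2 gave similar values, with differences of -0.20 ± 0.10 (limma adjusted p = 0.360) and -0.24 ± 0.10 (limma adjusted p = 0.307) and no overlap between the fractions. Vax2 read 451.9 and 427.3 on the positive and 501.1 and 536.1 on the negative arrays. Gbx2, known from the midbrain-hindbrain boundary, differed by -0.03 ± 0.14, and its sign turned without positive replicate 2 or negative replicate 1.

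Dlx1 and Dlx2, adjacent genes on chromosome 2 that act in interneurons and ganglion cells, overlapped between the fractions. Dlx1 read 379.3 and 674.8 on the positive and 362.6 and 699.9 on the negative arrays, so the replicates differed while the fractions did not separate. The fraction difference was 0.01 ± 0.40 for Dlx1, which ranged from -0.47 to 0.48 when 1 array was left out, and -0.19 ± 0.20 for Dlx2.

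In the Pax/paired group no gene had an unadjusted p under 0.05. Pax6, shared by progenitors and by amacrine, horizontal and ganglion cells, read 3497.4 and 3890.1 on the positive and 3204.7 and 3255.4 on the negative arrays. The positive arrays lay just above the negative ones, and the 95% interval of the difference ran from -0.08 to 0.46. Rax, an eye field factor that later contributes to photoreceptor gene expression, read 2442.3 and 2193.1 against 2247.9 and 2136.2 (0.08 ± 0.11), with an interval from -0.20 to 0.36. A 2-fold difference in either direction lay outside both intervals. Otx1, the paralog of Otx2, read 151.5 and 178.8 on the positive and 166.9 and 179.2 on the negative arrays. These overlapped, and the difference of -0.07 ± 0.13 turned positive without positive replicate 1. Vsx1 differed by -0.01 ± 0.15, turning to 0.02 with each array centred on its median.

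Of the sine oculis factors, which work with Eya and Dach proteins, Six5 was the 1 with an unadjusted p under 0.05. Six5, best known from its position beside the myotonic dystrophy kinase gene, read 238.5 and 180.5 on the positive and 342.9 and 368.3 on the negative arrays. Both positive arrays lay below both negative ones, by 0.78 ± 0.16 on the log2 scale (difference -0.78, limma adjusted p = 0.0937, and 0.0232 without positive replicate 1). Six3 read 658.9 and 602.0 on the positive and 638.4 and 556.5 on the negative arrays. Six3 and Six6, the eye field members, overlapped between the fractions, at 0.08 ± 0.12 and -0.02 ± 0.13. The sign of Six6 turned to 0.01 with centred arrays, and that of Six3 to -0.02 without negative replicate 2. Six6 read 1004.9 and 1163.4 against 1021.6 and 1169.2. Six2, known from kidney progenitors, differed by 0.06 ± 0.16 and turned negative without positive replicate 2 or negative replicate 2. Six4, which acts in muscle development, differed by -0.14 ± 0.11. Of the 6 Eya and Dach genes none was called by limma, and 1 (16.7%) had an unadjusted p under 0.05, against 19.2% of all features. This was Eya4, named after its values were seen, with a difference of -0.44 ± 0.10. The largest difference was 0.77 ± 0.36 for Eya1 (limma adjusted p = 0.339).

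The 6 Irx genes lie in 2 clusters, Irx1, Irx2 and Irx4 on chromosome 13 and Irx3, Irx5 and Irx6 on chromosome 8, in the RefSeq gene table of GRCm38.p6, with 0 other protein-coding genes between neighbours. In the first cluster the differences ran from -0.20 for Irx2 to 0.02 for Irx4, whose sign turned without positive replicate 2 or negative replicate 2. In the second they ran from -0.74 for Irx5 to 0.27 for Irx6, so neighbours had differences of opposite sign, though neither had an unadjusted p under 0.05. Irx5, needed by some bipolar cells, read 287.5 and 179.9 on the positive and 553.7 and 259.6 on the negative arrays. Those ranges overlapped, replicate 1 being the higher array in both fractions (-0.74 ± 0.41, limma adjusted p = 0.425). The difference was -0.19 without negative replicate 1 and -1.28 without negative replicate 2. Irx6, likewise a bipolar cell factor, read 214.5 and 263.3 against 205.1 and 190.7 (0.27 ± 0.14, limma adjusted p = 0.387). Irx3, an early patterning factor, differed by -0.09 ± 0.11, and Irx1 by -0.10 ± 0.10.

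Among the 4 measured Pou genes, Pou3f2 alone had an unadjusted p under 0.05. Pou3f2 (Brn2), a neurogenic factor, read 414.6 and 287.8 on the positive and 537.1 and 459.5 on the negative arrays, without overlap (-0.52 ± 0.20, limma adjusted p = 0.249). Its other feature gave 345.4 and 231.7 against 553.5 and 387.3, or -0.71 ± 0.26 (limma adjusted p = 0.228). Pou2f2, a paralog of Pou2f1 that has been tied to the timing of cone production, read 256.6 and 471.1 on the positive and 205.6 and 292.7 on the negative arrays. These overlapped, and its difference was 0.50 ± 0.33 (limma adjusted p = 0.509), with 0.94 without positive replicate 1 and 0.06 without positive replicate 2. Pou3f1 differed by 0.20 ± 0.20 and turned to -0.06 without negative replicate 1, while Pou3f3 differed by -0.15 ± 0.10.

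Many homeodomain factors recruit Groucho or CtBP corepressors. The 6 measured corepressor genes differed by between -0.01 and 0.17, and none was called by limma or had an unadjusted p under 0.05. Tle1 had the largest difference, 0.17 ± 0.29.

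Replicates of the same number moved in the same direction for several homeobox genes. Of the 39, 16 read higher on replicate 2 than on replicate 1 whether EGFP was present or not, and 11 read lower in both fractions. Of all features, 29.0% and 32.4% did so, against 41.0% and 28.2% of the 39 genes, so the share that read lower was near that of all features. Lhx9 was the only 1 of them with more than 1 log2 unit between replicates in the same direction in both fractions (-1.67 among positive and -1.05 among negative arrays, replicate 2 minus replicate 1), as were 0.201% of all features. Irx5 followed, with -0.68 and -1.09. In the opposite direction lay Dlx1, with 0.83 and 0.95, and Isl2, with 0.83 and 0.65. Of the 14 ganglion cell genes, 12 were higher in replicate 2 of both fractions, with medians of 0.72 (positive) and 1.15 (negative). Whether these share a source with the homeobox genes was not tested.

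**Figure D3:**
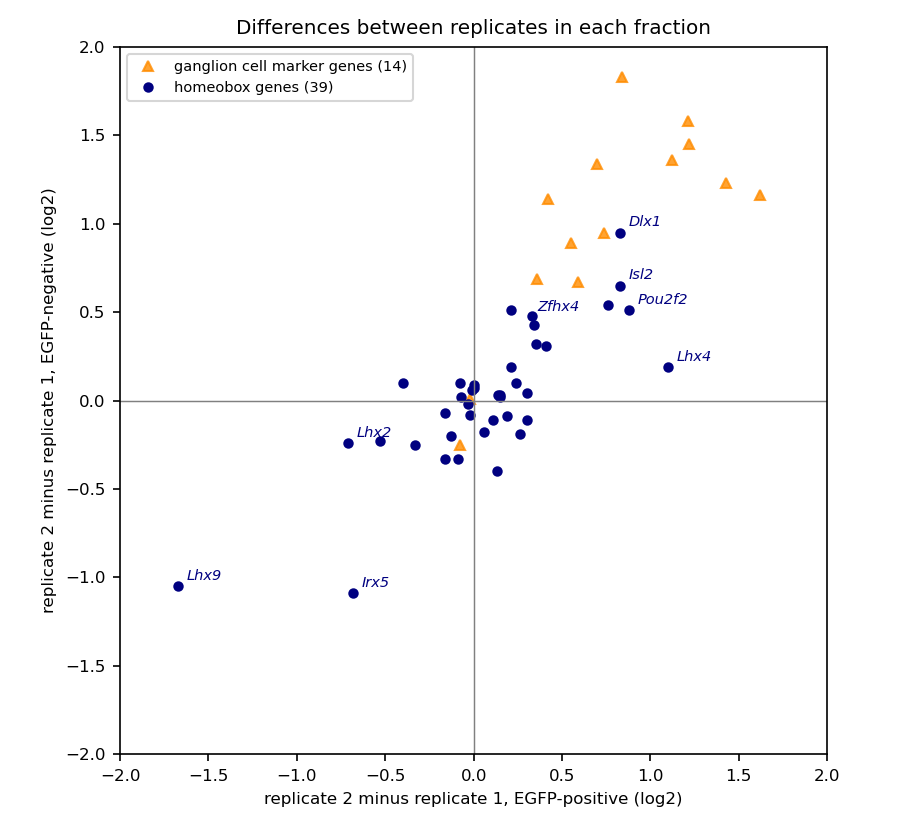
Difference of replicate 2 minus replicate 1 in log2 intensity, in the EGFP-positive fraction (horizontal axis) and the EGFP-negative fraction (vertical axis), for the 39 homeobox genes (circles) and 14 ganglion cell genes (triangles). Lhx9 and Irx5 lie at the lower left, and Dlx1 and Isl2 at the upper right among the ganglion cell genes.

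Across the set, fractions did not overlap for 19 of 39 genes (48.7%), against 47.6% of all features, with 10 on the higher side (25.6%, against 22.3%) and 9 on the lower (23.1%, against 25.3%). This share was close to that of all features.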

How the data were processed

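RNA of sorted EGFP-positive and EGFP-negative retinal cells (100 ng per sample, per the labels) was measured on 1 array per sample. The deposited intensity values are on a linear scale. The submitters' processing notes name RMA and the genome build mm8, and the linear scale was inferred from the values; for the probe sets summarised and any filter, nothing is given in the sources used here. No column was left unused. Values were log2-transformed without a pseudocount, and EGFP-positive minus EGFP-negative was modelled by limma 3.58.1 (lmFit and eBayes, no trend; R 4.3.3) on all 4 arrays and 22431 features. P-values are two-sided, adjusted by Benjamini-Hochberg across the whole table, and called under 0.05. Errors are moderated standard errors (SE) with 5.26 degrees of freedom, and the median SE was 0.12. The number of arrays limits the precision. Symbols came from the platform annotation, and all 39 Entrez numbers matched RefSeq (GRCm38.p6), from which only gene order was used.

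The members and gene lists were chosen with earlier results of these data known. All measured members are named. Values on every array are given for members with the largest difference each way in a subfamily, for those with replicate differences over 1 log2 unit in the same direction in both fractions, for Pax6, and for further members chosen after their values were seen. Companion and marker lists are described by counts, and for most lists by called genes and the largest difference. The fit was tested on simulated data. Alternatives covered variance models, scaling, a filter at the 25th percentile, a pseudocount of 50, averaging of features, a replicate block and leaving out each array.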

Additional observations from a re-analysis of the deposited data

How the results depend on the processing

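With all 4 arrays and no block, the 7 alternatives in variance model, scaling, filter, pseudocount and feature averaging called 0 of the 39 homeobox genes and 0 of the 56 companion genes by limma, with 10 to 12 and 5 to 6 at an unadjusted p under 0.05. Over all features the count of lower calls was 21 with an eBayes trend, 17 with a pseudocount of 50 and 51 with features averaged per gene, against 32. Centring each array on its median turned Vsx1 to 0.02 and Six6 to 0.01.

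Leaving out 1 array gave 0 to 667 features higher and 0 to 762 lower, 0 to 4 homeobox genes higher and 0 to 2 lower, and 0 to 2 companion genes higher and 0 to 1 lower. The lone array of a fraction is then assumed to vary like the other fraction. The sign turned for 15 of 39 genes and for 0 of the 12 with an unadjusted p under 0.05, whose fractions did not overlap, so that leaving out 1 array could not turn it. The log2 difference ran from -0.17 to 0.16 for Vsx1, -0.19 to 0.05 for Otx1, -0.50 to 1.18 for Lhx9, -0.14 to 0.26 for Six2, -0.02 to 0.18 for Six3 and -0.12 to 0.09 for Six6. It ran from -0.07 to 0.11 for Irx4, -0.06 to 0.45 for Pou3f1, -0.16 to 0.25 for Zeb2, -0.25 to 0.08 for Cux1 and -0.005 to 0.06 for Cux2. For Barhl1 it was -0.16 to 0.02, for Dlx1 -0.47 to 0.48, for Dlx2 -0.43 to 0.05 and for Gbx2 -0.19 to 0.14.

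With the replicate number as a block, limma called 1377 of the 22431 features higher and 1500 lower. Of the 39 homeobox genes it called 7 higher (Lhx4, Isl2, Zfhx3, Zfhx4, Zeb1, Satb1 and Barhl2) and 4 lower (Lhx2, Six5, Irx5 and Pou3f2). Of the 56 companion genes it called 3 higher and 2 lower. At an unadjusted p under 0.05 in this limma fit stood 35.9% of the 39 genes, against 27.1% of all features. Deviations of same-numbered arrays from their fraction means correlated at 0.48 over all features and at 0.80 over the 39 genes. The labels do not say that a number marks a shared litter or day, so the replicates are taken to share only a number.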

Other observations

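The Hox cluster genes, which pattern the body axis behind the forebrain, gave a set of homeobox genes from other tissues. Of 39 listed, 35 were measured, and limma called 0 of them, with 0 at an unadjusted p under 0.05. Their differences ran from -0.28 to 0.16, with a median of -0.05 and a median size of 0.06, against 0.20 for the retinal homeobox genes and 0.13 for all features. The mean intensity of 13 of the 35 lay under the 25th percentile of all features, as it did for 0 of the 39 homeobox genes described above. Some of those 39 still lay no higher than some Hox genes. For example, Six4 stood at percentile 30.1, Vsx1 at 37.5, Lhx3 at 46.4 and Irx6 at 49.2, against 49.9 for Hoxb9. Lhx3 is among the genes with an unadjusted p under 0.05 by limma. Whether such genes read above background was not tested, so a small difference there need not mean equal expression.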
